A study of Mus musculus with 24 samples.

Results

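Transcripts of 9 genes of the CC chemokine system were followed in mouse digits after amputation: the ligands Ccl2, Ccl3, Ccl4, Ccl6, Ccl7, Ccl8 and Ccl9 and the receptors Ccr1 and Ccr2. They were found by gene symbol in the annotation of the array, where 14807 genes have a probe set (a group of probes summarised to 1 value) that names 1 gene. For each member 1 probe set was used, 9 in all. Of these, 8 name 1 gene and 1 names both Ccl6 and Ccl9, so it is called Ccl6/Ccl9 below and gives no separate value for Ccl6. Counts of members are counts of these 9 probe sets, so Ccl9 can enter them through its own probe set and through Ccl6/Ccl9. None of the measured values was used to find the probe sets, but the genes were picked with earlier results of these arrays known.

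CC chemokines are small secreted proteins, named for a pair of neighbouring cysteines, that draw white blood cells along a gradient through receptors coupled to G proteins. Ccl2 and Ccl7 act mainly on Ccr2, which lets monocytes leave the bone marrow and enter wounded tissue. Ccl3, Ccl6, Ccl7 and Ccl9 act on Ccr1, a receptor of monocytes, macrophages, neutrophils and osteoclast precursors. In wounded skin and bone these genes are known for the early recruitment of monocytes, which become macrophages and, in bone, osteoclasts.

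Digits came from wild-type mice 3 to 4 months old of 2 inbred strains, MRL/MpJ (MRL), known for closing ear wounds, and C57BL/6 (B6), a common laboratory strain. Each strain has groups at day 0, the unamputated digit, and at days 3, 7 and 14 after the digit was amputated, with 3 arrays labelled as biological replicates in each of the 8 groups. Total RNA of the second phalanx of the middle hindlimb digits was hybridised to 1-colour Affymetrix exon arrays, and a note on the samples gives the tissue as the anterior part of that digit. The sources used here do not say whether 1 array is 1 mouse or a pool, so the p-values measure the spread between arrays. Values below are log2 of the deposited intensity, and differences are differences of log2 means with the moderated standard error (SE) of limma. A change was called at an adjusted p under 0.05, and 95% confidence intervals come from the same fit. Levels of different genes are not comparable, since each probe set has its own response.

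The arrays labelled MRL day 0 and MRL day 3 differed in the direction opposite to those of B6. Outside the members, 1005 probe sets were called and changed at least 2-fold between day 3 and day 0 in B6. Of these, 969 (96.4%) had the opposite sign in MRL. Whether labels were exchanged or the strains differ was not tested. The median intensity of an array was 141 to 181, and the lower quartile of an array lay at a log2 level of 5.73 to 5.92. The epidermal keratins Krt5, Krt14, Krt1 and Krt10 were high on every array and their summed intensity ran from 31831 to 40263. Detection calls were not analysed here, so a level below the lower quartile is named as low and not as absent. Whole tissue was measured, so fewer cells of a type and less RNA per cell cannot be told apart. Results that rest on the 6 arrays labelled MRL day 0 and MRL day 3 are given as labelled, after the others.

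By day 3 in B6 digits, the probe sets of both receptors and of all ligands except Ccl8 had risen, by 2.45-fold to 85.3-fold. The 2.45-fold is that of Ccl6/Ccl9, so a rise of Ccl6 by itself is not shown. In all, 8 of 9 members were called higher and 0 lower, against 17.4% of all 15928 probe sets higher and 28.0% lower. The median difference over the 9 members was 2.48, and over all probe sets it was -0.08. For each of the 8 genes called, all 3 day 3 arrays lay above all 3 day 0 arrays, which 19.2% of all probe sets did. The plot of levels by day shows every array.

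**Figure D1:**
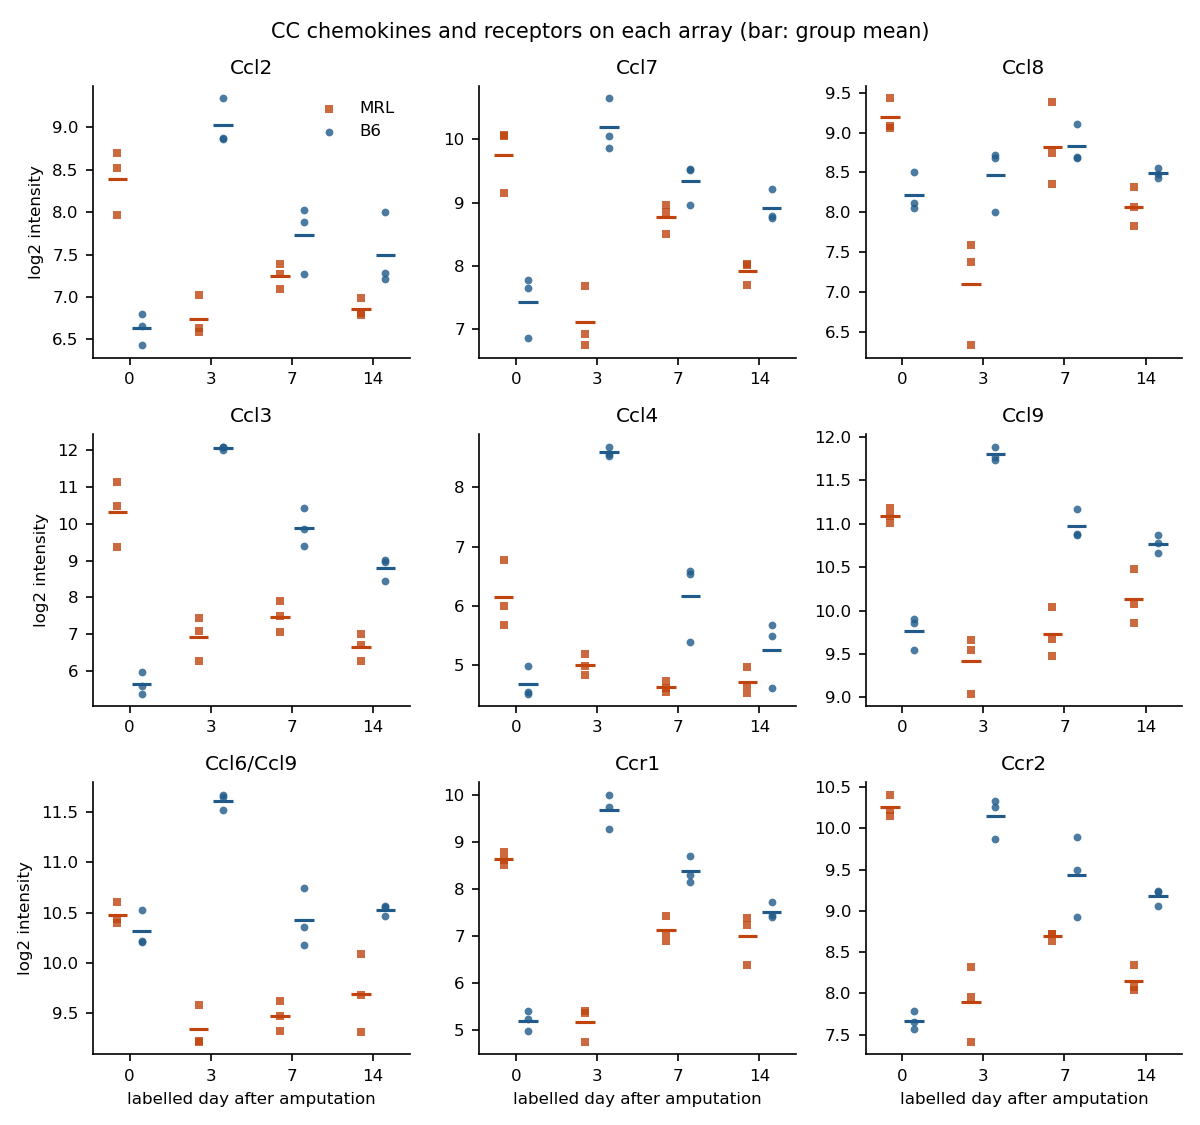
Log2 intensity of the 9 members on each of the 24 arrays (squares MRL, circles B6; bars are means of 3 arrays) by labelled day after amputation, with a separate scale for each gene. In B6 all members but Ccl8 stand highest at day 3, such as Ccl3 at 12.07, while in MRL the arrays labelled day 0 stand highest for all 9.

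Among the macrophage inflammatory proteins, Ccl3, which draws in monocytes and neutrophils, had the largest difference of the 9. In B6 its level was 5.98, 5.39 and 5.60 at day 0, 12.11, 12.10 and 12.01 at day 3, 9.41, 10.42 and 9.87 at day 7, and 8.46, 8.96 and 9.03 at day 14. The day 3 arrays differed little and no 2 days overlapped. Ccl3 was 6.41 ± 0.36 (SE) higher at day 3 than at day 0 (limma adjusted p = 1.84e-11). On 2 of the 3 day 0 arrays Ccl3 lay under the lower quartile, so the fold of 85.3 holds an unmeasured background. Ccl4, its neighbour on chromosome 11 and an attractant of macrophages and T cells, was 4.99, 4.54 and 4.52 at day 0, 8.56, 8.52 and 8.69 at day 3, 5.39, 6.53 and 6.58 at day 7, and 4.61, 5.67 and 5.49 at day 14. Only the day 3 arrays of Ccl4 all lay above the lower quartile. Its difference at day 3 was 3.91 ± 0.29, or 15.1-fold (limma adjusted p = 1.28e-09). The annotated spans of Ccl3 and Ccl4 overlap in the reference gene table of GRCm38.p6, and whether probes of one take up transcripts of the other was not tested.

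Of the monocyte chemoattractant proteins, Ccl2 and Ccl7 rose by day 3 and Ccl8 did not pass the test. Ccl2, a main ligand of Ccr2, had levels of 8.86, 9.34 and 8.88 on the day 3 arrays and 6.80, 6.66 and 6.43 on the day 0 arrays, a difference of 2.39 ± 0.22 (limma adjusted p = 2.70e-08). Ccl7, which acts on Ccr1 and Ccr2, stood at 10.06, 10.65 and 9.87 against 7.77, 6.85 and 7.64 at day 0, a difference of 2.77 ± 0.29 (limma adjusted p = 1.38e-07). Both genes lie next to each other on chromosome 11, and Ccl8 lies in the same cluster, beside Ccl12. Ccl8, which in mouse acts on Ccr8, had 8.68, 8.72 and 8.0 at day 3 and 8.11, 8.05 and 8.51 at day 0. Its arrays of both days overlapped, with a difference of 0.24 ± 0.27 (limma adjusted p = 0.494). The 95% confidence interval of that difference, from -0.33 to 0.81, lies below the intervals of the other 8 members, the lowest of which begins at 0.96.

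Ccl9, a ligand of Ccr1 made by macrophages and osteoclasts, was measured by 1 probe set of its own and by the one shared with Ccl6. Its own probe set gave 11.89, 11.77 and 11.73 at day 3 and 9.85, 9.54 and 9.91 at day 0, a difference of 2.03 ± 0.17 (limma adjusted p = 5.44e-09). Ccl6/Ccl9 gave 11.67, 11.52 and 11.65 at day 3 and 10.22, 10.20 and 10.53 at day 0, a smaller difference of 1.29 ± 0.16 (limma adjusted p = 1.93e-06). All day 3 arrays lay above all day 0 arrays for both probe sets.

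Of the receptors, Ccr1 had the larger difference by day 3. Ccr1 was 9.74, 9.26 and 9.99 on the day 3 arrays and 5.22, 4.97 and 5.39 on the day 0 arrays, where all 3 lay under the lower quartile. Its difference was 4.47 ± 0.24, or 22.2-fold (limma adjusted p = 8.42e-12). Ccr2, the receptor of inflammatory monocytes, was 9.87, 10.33 and 10.26 at day 3 and 7.79, 7.65 and 7.57 at day 0, a difference of 2.48 ± 0.20 (limma adjusted p = 4.86e-09). Ccr1 and Ccr2 lie in a cluster of receptor genes on chromosome 9, Ccr1 beside Ccr1l1 and Ccr2 beside Ccr3.

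Start sites are shown for 4 members that differ in their change by day 3 in B6, the ligands Ccl3, Ccl9 and Ccl8 and the receptor Ccr1, since these genes lie in shared clusters and 3 of them rose together. The sequences are those of RefSeq on GRCm38.p6, with 250 bases before and 50 after the annotated start, written 5′ to 3′ along the gene, and 6 of the 9 members had such an entry. Capitals mark matches on either strand to the NF-kB core (GGG, 5 of any base and CC), the AP-1 site TGANTCA, the C/EBP site TTGCNNAA or the TATA box TATAAA.
Ccl3, chr11:83649329-83649628, minus strand: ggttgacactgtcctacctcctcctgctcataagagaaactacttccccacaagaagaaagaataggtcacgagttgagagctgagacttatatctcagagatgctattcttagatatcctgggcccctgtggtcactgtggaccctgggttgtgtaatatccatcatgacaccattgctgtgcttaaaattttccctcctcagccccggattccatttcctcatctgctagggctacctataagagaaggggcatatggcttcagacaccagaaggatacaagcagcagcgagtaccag
Ccl9, chr11:83578587-83578886, minus strand: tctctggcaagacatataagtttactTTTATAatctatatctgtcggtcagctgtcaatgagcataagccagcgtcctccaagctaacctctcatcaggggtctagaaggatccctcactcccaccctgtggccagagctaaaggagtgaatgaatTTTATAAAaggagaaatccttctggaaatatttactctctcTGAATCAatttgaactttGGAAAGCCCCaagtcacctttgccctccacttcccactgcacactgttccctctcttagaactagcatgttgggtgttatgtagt
Ccl8, chr11:82114935-82115234, plus strand: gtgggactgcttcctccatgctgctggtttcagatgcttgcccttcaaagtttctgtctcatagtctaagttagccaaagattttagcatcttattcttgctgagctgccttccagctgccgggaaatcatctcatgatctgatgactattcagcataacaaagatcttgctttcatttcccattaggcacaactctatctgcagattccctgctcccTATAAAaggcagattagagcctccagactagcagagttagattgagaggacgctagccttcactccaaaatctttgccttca
Ccr1, chr9:123968643-123968942, minus strand: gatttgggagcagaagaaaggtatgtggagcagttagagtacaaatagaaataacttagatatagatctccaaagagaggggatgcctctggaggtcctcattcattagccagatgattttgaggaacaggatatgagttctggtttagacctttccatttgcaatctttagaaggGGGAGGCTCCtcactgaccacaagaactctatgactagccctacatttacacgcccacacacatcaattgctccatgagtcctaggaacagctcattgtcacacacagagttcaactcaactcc
Ccl8 holds a TATA box whose first base lies 32 bases before the start. The Ccl9 window holds matches to the TATA box, 2 of which overlap each other, with an AP-1 match 53 bases and an NF-kB core match 35 bases before the start. In Ccr1 there is an NF-kB core match 74 bases before the start, and in Ccl3 none of the 4 motifs was found. Over the 6 windows, the NF-kB core was in 2, against 50.8% of all 32851 promoter windows of this length, AP-1 in 1 against 7.81%, the TATA box in 2 against 13.6%, and the C/EBP site in 0 against 10.8%. A match describes letters in the window and not a bound factor.

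At day 7 in B6, 7 of 9 members were still above day 0 and 0 below it (23.5% of all probe sets were higher and 19.4% lower). Ccl3 was 4.24 ± 0.36 (SE) above day 0, Ccr1 3.19 ± 0.24, Ccl7 1.92 ± 0.29 and Ccr2 1.77 ± 0.20. Ccl4, at 1.49 ± 0.29, Ccl9, at 1.20 ± 0.17, and Ccl2, at 1.10 ± 0.22, also passed the test (limma adjusted p = 0.000414 for Ccl2). Ccl8 stood at 8.69, 8.69 and 9.11 at day 7, all above its 3 day 0 arrays, but its difference of 0.61 ± 0.27 did not pass (limma adjusted p = 0.0808). Ccl8 passed with array weights, and when only the arrays of these days were fitted (adjusted p = 0.0386 and 0.0156). Ccl6/Ccl9 was 10.36, 10.74 and 10.18 at day 7, overlapping day 0, with a difference of 0.11 ± 0.16 (limma adjusted p = 0.622).

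**Figure D2:**
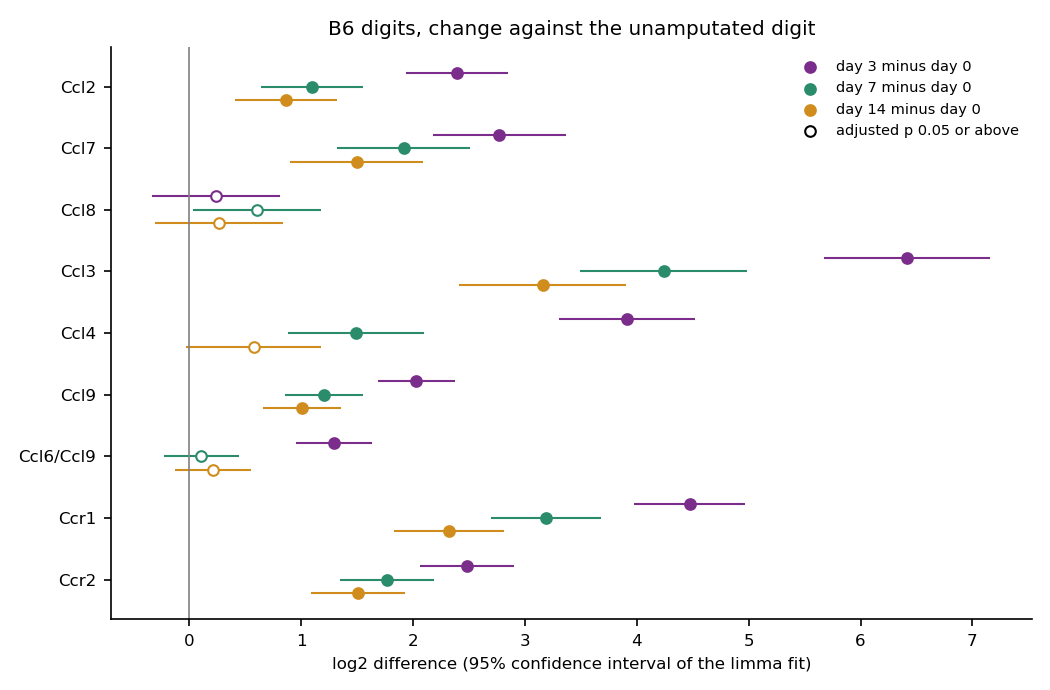
Log2 difference of each member at days 3, 7 and 14 against day 0 in B6 (points; 3 arrays a group), with 95% confidence intervals of the limma fit and open points where the adjusted p was 0.05 or above. The day 3 points lie farthest to the right for every gene but Ccl8, whose 3 points stay between 0.24 and 0.61.

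At day 14 in B6, 6 of 9 members were above day 0 and 0 below (22.8% of all probe sets were higher and 14.2% lower). Ccl3 remained 8.93-fold and Ccr1 4.99-fold above day 0, with differences of 3.16 ± 0.36 and 2.32 ± 0.24 (SE). Ccr2 was 1.51 ± 0.20 higher, Ccl7 1.5 ± 0.29, Ccl9 1.00 ± 0.17 and Ccl2 0.87 ± 0.22 (limma adjusted p = 0.00395 for Ccl2). Ccl4, at 0.58 ± 0.29, did not pass (limma adjusted p = 0.129), and all 3 day 14 arrays lay under the lower quartile. Without B6 day 14 replicate 1, whose Ccl4 level was 4.61, the difference was 0.90 (limma adjusted p = 0.0226). Ccl8 differed by 0.27 ± 0.27 and Ccl6/Ccl9 by 0.21 ± 0.16, and neither passed.

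Between days 3 and 7 in B6, 8 of 9 members fell and 0 rose, while 4.17% of all probe sets were lower and 17.0% higher. Ccl4 fell by 2.42 on the log2 scale (SE 0.29, limma adjusted p = 4.87e-06), Ccl3 by 2.17 (SE 0.36), Ccl2 by 1.30 (SE 0.22), Ccr1 by 1.29 (SE 0.24) and Ccl6/Ccl9 by 1.19 (SE 0.16). Smaller falls were those of Ccl7, by 0.85 (SE 0.29), Ccl9, by 0.83 (SE 0.17), and Ccr2, by 0.71 (SE 0.20). The call of Ccl7 was lost without B6 day 3 replicate 2 or without B6 day 7 replicate 1 or 3 (adjusted p = 0.201, 0.174 and 0.0526). That of Ccr2 was lost in a fit of these 6 arrays alone, and without B6 day 3 replicate 2 or 3 or B6 day 7 replicate 3 (adjusted p = 0.0917, 0.0752, 0.0510 and 0.125). Ccl8, with a difference of 0.36 ± 0.27, did not pass (limma adjusted p = 0.396). From day 7 to day 14 no member was called by limma in B6, although 3 had an unadjusted p under 0.05. These were Ccr1 at -0.87 ± 0.24, Ccl4 at -0.91 ± 0.29 and Ccl3 at -1.08 ± 0.36, with adjusted p = 0.0667, 0.145 and 0.164, while limma called 1.86% of all probe sets, 0.402% as lower. Ccr1 passed with another scaling, an added offset, a filter on low probe sets or a fit of these arrays alone (adjusted p = 0.0220 to 0.0495), and Ccl4 without B6 day 7 replicate 1 (-1.30, adjusted p = 0.0104).

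Markers of monocytes and macrophages and of neutrophils were also highest at day 3 in B6, and markers of osteoclasts at day 7. The summed intensity of 11 monocyte and macrophage markers was 5658 to 6785 at day 0, 12944 to 15725 at day 3, 10167 to 10840 at day 7 and 8588 to 9346 at day 14. Of these 11, 10 rose by day 3 and Cd163, a scavenger receptor of resident macrophages, did not pass. The 9 neutrophil markers summed to 707 to 787 at day 0, 10671 to 12594 at day 3, 4143 to 6616 at day 7 and 2211 to 6509 at day 14, and 6 of them rose by day 3. Over these 9 markers the median log2 difference by day 3 was 2.62, with a range from -0.25 to 5.23. A sum of intensities weighs the brightest probe sets most. The 8 osteoclast markers summed to 2044 to 2285, 2950 to 3678, 11961 to 12728 and 7402 to 9423 on the same days. Some markers were low: at day 0 in B6 the lowest single intensity was 20.4 in the neutrophil list and 30.7 in the osteoclast list. Both lay under the lower quartile of the arrays. The part of these cells in the members' levels was not tested. Endothelial markers also rose by day 3, all 3 of 3 with a median difference of 0.78, while 0 of 5 T cell, 1 of 3 B cell, 1 of 3 eosinophil and 2 of 5 mast cell markers did, the mast cell marker Kit fell, and 0 of 4 keratinocyte markers passed.

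**Figure D3:**
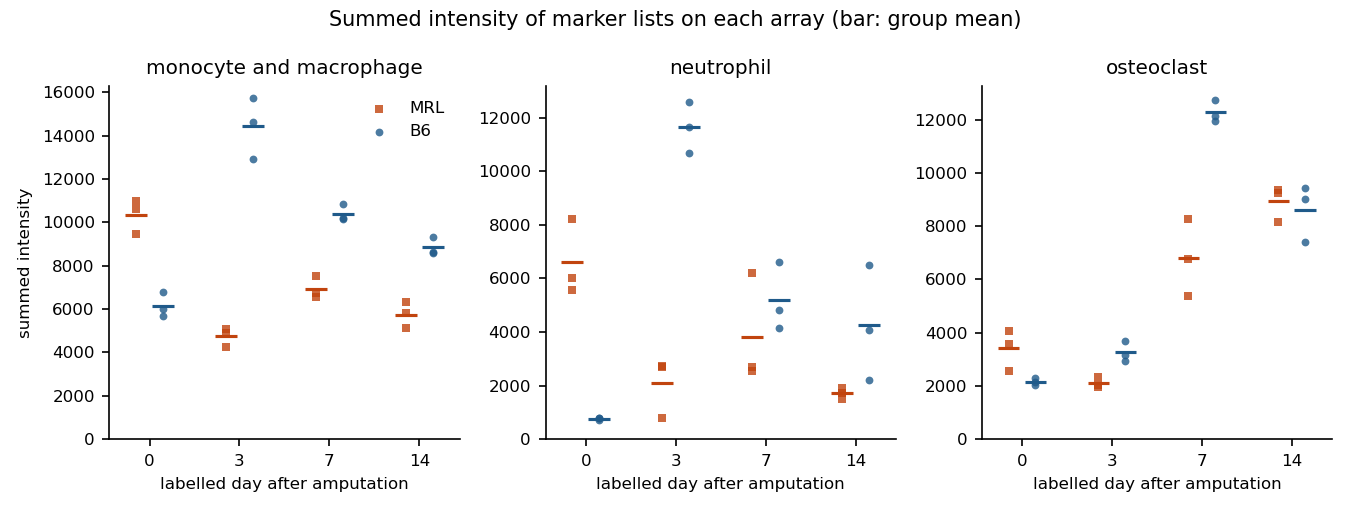
Summed intensity (linear scale from 0) of 11 monocyte and macrophage, 9 neutrophil and 8 osteoclast markers on each array by labelled day (squares MRL, circles B6; bars are means of 3 arrays). In B6 the first 2 lists stand highest at day 3, with 12944 to 15725 for macrophage markers, and the osteoclast list stands highest at day 7.

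At day 7, MRL digits had less transcript of Ccl3, Ccl4, Ccl9, Ccl6/Ccl9, Ccr1 and Ccr2 than B6 digits, while Ccl2, Ccl7 and Ccl8 did not pass. In all, 6 of 9 members were lower in MRL and 0 higher, against 6.27% of all probe sets lower and 3.18% higher, and the median difference was -0.95 over the members and -0.07 over all probe sets. Ccl3 was 7.90, 7.05 and 7.5 in MRL and 9.41, 10.42 and 9.87 in B6, with no overlap and a difference of -2.42 ± 0.36 (SE, limma adjusted p = 0.000133). Ccl4 was 4.54, 4.61 and 4.73 in MRL, all under the lower quartile, and 5.39, 6.53 and 6.58 in B6, a difference of -1.54 ± 0.29 (limma adjusted p = 0.00149). With the MRL arrays that low, the size of the Ccl4 difference holds an unmeasured background. For Ccl9 the MRL arrays gave 9.48, 9.67 and 10.04 and the B6 arrays 10.87, 11.17 and 10.88, a difference of -1.24 ± 0.17 (limma adjusted p = 4.69e-05). Ccl6/Ccl9 differed by -0.95 ± 0.16 (limma adjusted p = 0.000559).

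Both receptors were lower in MRL at day 7. Ccr1 was 6.89, 7.06 and 7.41 in MRL and 8.15, 8.70 and 8.30 in B6, a difference of -1.26 ± 0.24 (SE, limma adjusted p = 0.00149). Ccr2 was 8.72, 8.63 and 8.72 in MRL and 9.50, 9.90 and 8.92 in B6, with no overlap and a difference of -0.75 ± 0.20 (limma adjusted p = 0.0216). The Ccr2 call was lost after cyclic loess or quantile scaling or in a fit of these 6 arrays alone (adjusted p = 0.0669, 0.0534 and 0.0793). It was also lost without MRL replicate 1, 2 or 3 (adjusted p = 0.0591, 0.0698 and 0.0546) or B6 replicate 1 or 2 (adjusted p = 0.0623 and 0.146). Among the ligands of Ccr2, Ccl2 was 7.39, 7.27 and 7.09 in MRL and 7.27, 8.03 and 7.89 in B6, overlapping, with a difference of -0.48 ± 0.22 (limma adjusted p = 0.196). Ccl7 was 8.96, 8.85 and 8.50 in MRL and 8.97, 9.52 and 9.53 in B6, a difference of -0.57 ± 0.29 (limma adjusted p = 0.242). Ccl8 was 8.35, 8.74 and 9.38 in MRL and 8.69, 8.69 and 9.11 in B6, a difference of -0.01 with a 95% confidence interval from -0.58 to 0.56.

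**Figure D4:**
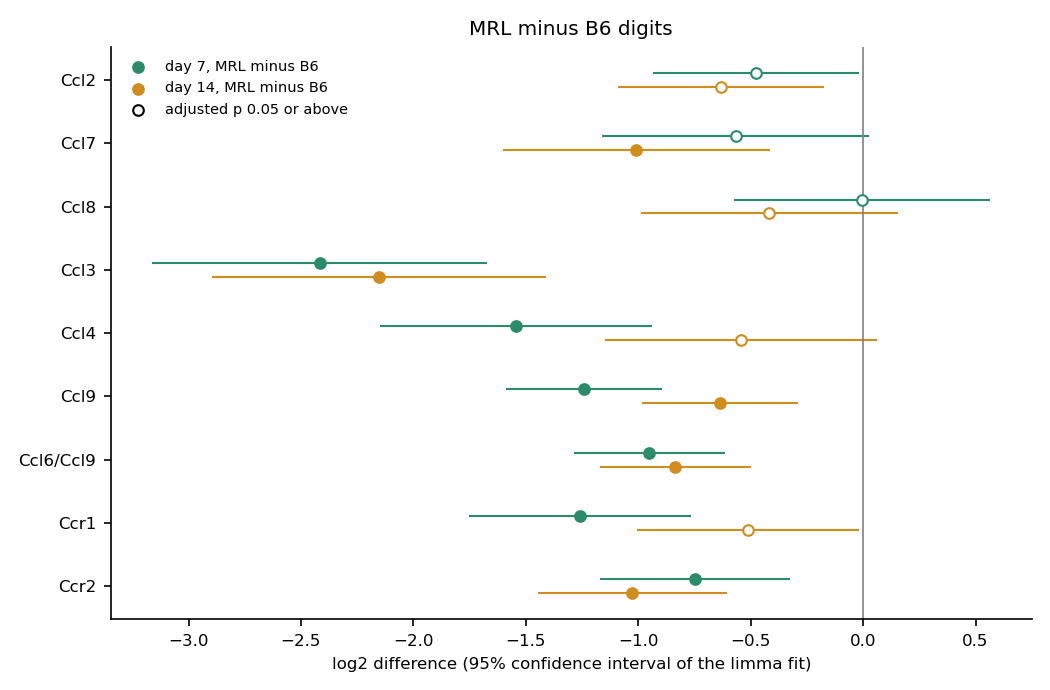
Log2 difference of MRL minus B6 for each member at day 7 and at day 14 (points; 3 arrays a group), with 95% confidence intervals of the limma fit and open points where the adjusted p was 0.05 or above. Ccl3 lies farthest below 0 on both days, at -2.42 and -2.15, and Ccl8 at day 7 lies at -0.01.

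At day 14, 5 of 9 members were lower in MRL and 0 higher, against 4.40% of all probe sets lower and 0.866% higher. Ccl3 was 6.70, 6.28 and 7.01 in MRL and 8.46, 8.96 and 9.03 in B6, a difference of -2.15 ± 0.36 (SE, limma adjusted p = 0.000603). Ccr2 was 8.35, 8.08 and 8.04 in MRL and 9.24, 9.06 and 9.23 in B6, a difference of -1.03 ± 0.20 (limma adjusted p = 0.00309). Ccl6/Ccl9 differed by -0.83 ± 0.16 (limma adjusted p = 0.00263). No array of these groups overlapped for any of the 3. Ccl7 was lower at -1.01 ± 0.29 (limma adjusted p = 0.0410), a call lost without any 1 of the 6 arrays (adjusted p = 0.0514 to 0.188) and after cyclic loess scaling (adjusted p = 0.0548). Ccl9 was lower at -0.64 ± 0.17 (limma adjusted p = 0.0258), a call lost without MRL or B6 replicate 1 or 2 (adjusted p = 0.0856 to 0.171) and in a fit of these arrays alone (adjusted p = 0.0824).

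The other 4 members did not pass at day 14. Ccr1 was 7.23, 6.38 and 7.38 in MRL and 7.39, 7.71 and 7.43 in B6, with no overlap but little distance and a difference of -0.51 ± 0.24 (SE, limma adjusted p = 0.270). Ccl2 differed by -0.63 ± 0.22 (limma adjusted p = 0.106, and 0.0314 with array weights), Ccl4 by -0.54 ± 0.29 and Ccl8 by -0.42 ± 0.27. Whether the strain difference changed between days 7 and 14 was tested as an interaction, and no member was called (3 had an unadjusted p under 0.05, and limma called 0.264% of all probe sets). Its largest values among the members were 1.00 ± 0.41 for Ccl4, 0.74 ± 0.34 for Ccr1 and 0.61 ± 0.24 for Ccl9, with adjusted p = 0.614, 0.695 and 0.559. So the call of Ccr1 and Ccl4 at day 7 and not at day 14 does not show that their strain difference changed.

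Macrophage markers were lower in MRL as well. Their summed intensity was 6568 to 7530 in MRL and 10167 to 10840 in B6 at day 7, and 5107 to 6326 in MRL and 8588 to 9346 in B6 at day 14. Of the 11 markers, 7 were lower at day 7 and 9 at day 14. Neutrophil markers summed to 2559 to 6205 in MRL and 4143 to 6616 in B6 at day 7, with 3 of 9 lower. The upper end in MRL is replicate 1, and the other 2 MRL arrays stood at 2559 and 2674, below all 3 B6 arrays. At day 14 they summed to 1511 to 1901 in MRL and 2211 to 6509 in B6, with 1 of 9 lower, the receptor gene Csf3r. Osteoclast markers at day 7 summed to 5364 to 8287 in MRL and 11961 to 12728 in B6, with 7 of 8 lower, and at day 14 to 8170 to 9354 in MRL and 7402 to 9423 in B6, with 1 of 8 lower. The part of these cells in the strain differences was not tested.

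From day 7 to day 14 in MRL, no member was called by limma, while 5 had an unadjusted p under 0.05 (3.54% of all probe sets were called, 1.79% as lower and 1.75% as higher). Ccl7 differed by -0.86 ± 0.29 (SE), Ccl8 by -0.75 ± 0.27, Ccr2 by -0.54 ± 0.20, Ccl3 by -0.82 ± 0.36 and Ccl9, in the other direction, by 0.41 ± 0.17, with adjusted p = 0.118, 0.175, 0.191, 0.300 and 0.253. With array weights Ccl7 and Ccl8 passed (adjusted p = 0.0161 and 0.00761), and Ccl7 passed in a fit of these 6 arrays alone (adjusted p = 0.0313).

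As labelled, all 9 members were lower at day 3 than at day 0 in MRL, against 7.15% of all probe sets lower and 13.4% higher. Ccr1 was 4.75, 5.40 and 5.37 on the arrays labelled day 3 and 8.79, 8.62 and 8.50 on those labelled day 0, a difference of -3.46 ± 0.24 (SE, limma adjusted p = 1.41e-09). All 3 arrays labelled day 3 lay under the lower quartile for Ccr1, so the size of its differences against them holds an unmeasured background. Ccl3 was 7.43, 6.28 and 7.08 on the arrays labelled day 3 and 9.37, 10.49 and 11.15 on those labelled day 0, a difference of -3.40 ± 0.36. Ccl8, not called in B6, was 6.34, 7.38 and 7.59 on the arrays labelled day 3 and 9.43, 9.05 and 9.09 on those labelled day 0, a difference of -2.09 ± 0.27 (limma adjusted p = 9.83e-06). The other differences ran from -1.13 for Ccl6/Ccl9 to -2.65 for Ccl7. The 2 groups did not overlap for any of the 9 members (14.1% of all probe sets were lower without overlap). The call of Ccl4, at -1.15 ± 0.29, was lost without MRL day 0 replicate 3 (-0.84, adjusted p = 0.0655). Ccl4 lay under the lower quartile on all 3 arrays labelled day 3 and on 1 labelled day 0. The size of this Ccl4 difference therefore also holds an unmeasured background.

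Set beside B6, the arrays labelled MRL day 0 were higher than B6 day 0 in 8 of 9 members (17.9% of all probe sets), and those labelled MRL day 3 lower than B6 day 3 in 9 of 9 (13.6%). The differences at day 0 ran from 0.16 ± 0.16 (SE) for Ccl6/Ccl9, which did not pass, to 4.68 ± 0.36 for Ccl3, and at day 3 from -1.36 ± 0.27 for Ccl8 to -5.14 ± 0.36 for Ccl3. Ccr1 had a mean of 5.17 in the arrays labelled MRL day 3 and of 5.19 in B6 day 0, and Ccr2 of 7.90 and 7.67. Against these same groups, Ccl8 had a mean of 7.10 and 8.22, and Ccl6/Ccl9 of 9.35 and 10.32. In the arrays labelled MRL day 0 and in B6 day 3, Ccr2 had means of 10.26 and 10.15 and Ccl3 of 10.34 and 12.07. Macrophage markers summed to 4265 to 5100 in the arrays labelled MRL day 3 and 9464 to 10995 in those labelled MRL day 0. Neutrophil markers summed to 801 to 2745 in the arrays labelled MRL day 3 and 5583 to 8222 in those labelled MRL day 0.

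Later MRL days were set against both of these groups, and the comparisons share the day 7 and day 14 arrays. Against the arrays labelled day 0, 8 of 9 members were lower at day 7 (6.55% of all probe sets) and 9 of 9 at day 14 (7.23%). Ccl3 differed by -2.85 ± 0.36 (SE) at day 7 and -3.67 ± 0.36 at day 14. Ccl8 did not pass at day 7, at -0.36 ± 0.27. The day 7 call of Ccl7, at -0.99 ± 0.29, was lost without MRL day 0 replicate 1 or 2 or MRL day 7 replicate 3 (adjusted p = 0.0953, 0.0813 and 0.0959).

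Against the arrays labelled day 3, 4 members were higher at day 7 and 0 lower (9.68% of all probe sets were higher and 13.4% lower). Ccr1 was higher by 1.95 ± 0.24 (SE), Ccl8 by 1.72 ± 0.27, Ccl7 by 1.66 ± 0.29 and Ccr2 by 0.79 ± 0.20 (limma adjusted p = 3.29e-06, 8.01e-05, 0.000186 and 0.00617). Ccr1 lay under the lower quartile on all 3 arrays labelled day 3, so the size of its differences at days 7 and 14 holds an unmeasured background. The Ccr2 call was lost without MRL day 3 replicate 1 (0.55, adjusted p = 0.0614). Ccl3, Ccl4, Ccl9, Ccl6/Ccl9 and Ccl2 did not pass, with differences from -0.37 for Ccl4 to 0.55 for Ccl3. When only these 6 arrays were fitted, Ccl4 was called lower and Ccl2 higher (adjusted p = 0.0378 and 0.0288), and after cyclic loess scaling Ccl9 was called higher (adjusted p = 0.0420). Ccl4 lay under the lower quartile on all 6 arrays, so the size of its difference holds an unmeasured background. At day 14, 3 members were higher than in the arrays labelled day 3 (5.59% of all probe sets), Ccr1 by 1.83 ± 0.24, Ccl8 by 0.97 ± 0.27 and Ccl9 by 0.72 ± 0.17. The call of Ccl8 was lost without MRL day 3 replicate 1 or MRL day 14 replicate 1 or 3 (adjusted p = 0.176, 0.0572 and 0.0758), and that of Ccl9 without MRL day 3 replicate 1 (adjusted p = 0.0555). Both were also lost when only these 6 arrays were fitted (adjusted p = 0.0810 and 0.0634). Ccl7, at 0.80 ± 0.29, and Ccl6/Ccl9, at 0.35 ± 0.16, did not pass, but were called higher after cyclic loess scaling (adjusted p = 0.0361 and 0.0298). Ccl7 was also called without MRL day 3 replicate 3, with array weights and with the filter on low levels (adjusted p = 0.0245, 0.0237 and 0.0453), and Ccl6/Ccl9 without MRL day 14 replicate 2 (adjusted p = 0.0337).

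Ordered by mean level over the 8 groups, B6 day 3 stood first for 7 members, and the arrays labelled MRL day 0 stood first for Ccl8 and Ccr2. For Ccr2 these first 2 groups, at 10.26 and 10.15, overlapped. Ccl3 came in the order B6 day 3, MRL day 0 as labelled, B6 day 7, B6 day 14, MRL day 7, MRL day 3 as labelled, MRL day 14 and B6 day 0, with overlap of neighbours in 3 of 7 steps. For Ccr1 the order was B6 day 3, MRL day 0 as labelled, B6 day 7, B6 day 14, MRL day 7, MRL day 14, B6 day 0 and MRL day 3 as labelled, with overlap in 4 of 7. Ccl7 and Ccl8 overlapped in 6 of 7 steps, and Ccl2, Ccl4, Ccl9, Ccl6/Ccl9 and Ccr2 in 5. The range of group means was 2.09 for Ccl8. For Ccl3, Ccr1 and Ccl4 it was 6.41, 4.50 and 3.97, but it ended at groups with 2 or 3 of 3 arrays under the lower quartile, so these 3 ranges hold an unmeasured background and give no order.

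Over the 8 group means, Pearson's r between members was 0.71 to 0.97 for pairs without Ccl8 and 0.28 to 0.77 for pairs with it. The highest values were those of Ccl2 with Ccl3 (0.973) and of Ccl7 with Ccr1 (0.973), and the lowest was that of Ccl4 with Ccl8. Outside the members, the single-symbol genes nearest to Ccl7 were Clec4a1, Cxcr4 and C3ar1 (r = 0.997, 0.996 and 0.996), Cxcr4 being a chemokine receptor of many white blood cells and C3ar1 the receptor of a complement fragment. Nearest to Ccr1 were Lcp2, Cd68 and Rac2 (r = 0.997, 0.991 and 0.991), Cd68 being a macrophage marker, and nearest to Ccr2 were Msr1, Asf1b and Ly9 (r = 0.99, 0.98 and 0.98). Ccl2 was most like Slfn4, Igfl3 and Srgn (r = 0.996, 0.993 and 0.993), and Ccl9 most like Itgb2, Fcgr4 and Ebi3 (r = 0.98, 0.97 and 0.97). Ccl3 was nearest to Sprr2f, Trim30a and Capzb (r = 0.99 for each), and Ccl6/Ccl9 to Fam170a, Tlr9 and Csf1 (r = 0.98 for each). Ccl8 had lower values, with Gja4 at 0.96, Ctdnep1 at 0.95 and Eng, a receptor gene of endothelium, at 0.94. The genes nearest to Ccl4 were Olfr620, Tas2r129 and Olfr1202 (r = 0.99 for each), whose group means spanned only 4.31 to 4.83, 4.69 to 5.29 and 2.84 to 3.51. Spans were also narrow for Capzb (10.35 to 10.76), Fam170a (4.01 to 4.54), Ctdnep1 (8.49 to 8.84) and Ebi3 (6.22 to 6.77). Little wider were those of Gja4 (7.01 to 7.68), Asf1b (8.43 to 9.10) and Tlr9 (6.77 to 7.55). Each gene outside the members was picked for the highest r among the single-symbol genes. These values of r describe 8 means that share arrays and scaling, and they take no account of size.

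Of the other genes of the family, 22 had a probe set of their own. By day 3 in B6, 3 of these rose, 5 fell and 14 did not pass, with a median difference of 0.04. The shares are near those of all probe sets, of which 17.4% were higher and 28.0% lower. Ccrl2, a receptor that binds chemerin without signalling, rose by 2.27 ± 0.20 (SE, limma adjusted p = 1.76e-08), Ccr3, the receptor of eosinophils, by 2.17 ± 0.31 and Ccl12, another ligand of Ccr2 in mouse, by 0.97 ± 0.23. All 3 day 0 arrays of Ccr3 and of Ccl12 lay under the lower quartile. The size of their differences against day 0, at this and later days, therefore holds an unmeasured background. Ccl17, a ligand of Ccr4 made by dendritic cells, fell by 2.28 on the log2 scale (SE 0.47), Ccl24, a ligand of Ccr3, by 1.14 (SE 0.24), the scavenging receptor Ackr2 by 0.51 (SE 0.17), Ackr4 by 0.50 (SE 0.14) and Ccl22, another ligand of Ccr4, by 0.48 (SE 0.15). The calls of Ackr2, Ackr4 and Ccl22 were lost after cyclic loess scaling (adjusted p = 0.103, 0.160 and 0.218), and those of Ackr4 and Ccl22 also after quantile normalization (adjusted p = 0.0554 and 0.0703). Without B6 day 0 replicate 1 those of Ackr2 and Ccl22 were lost (adjusted p = 0.0954 and 0.0614), and that of Ackr2 also without B6 day 0 replicate 3 or B6 day 3 replicate 2 or 3 (adjusted p = 0.0519 to 0.0787). Ackr1, at 0.23, did not pass but was called higher after cyclic loess or quantile scaling (adjusted p = 0.00166 and 0.00684). Ccl17 had levels of 4.76, 4.86 and 5.0 at day 3, all under the lower quartile, against 8.60, 6.27 and 6.61 at day 0. Ccl5, a ligand of T cells and monocytes, stood at a mean of 5.83 at day 3 and 5.47 at day 0 and did not pass. The other ligand genes Ccl1, Ccl11, Ccl20, Ccl25, Ccl26 and Ccl28 did not pass either, but Ccl11 was called lower with array weights (-0.43, adjusted p = 0.0351).

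**Figure D5:**
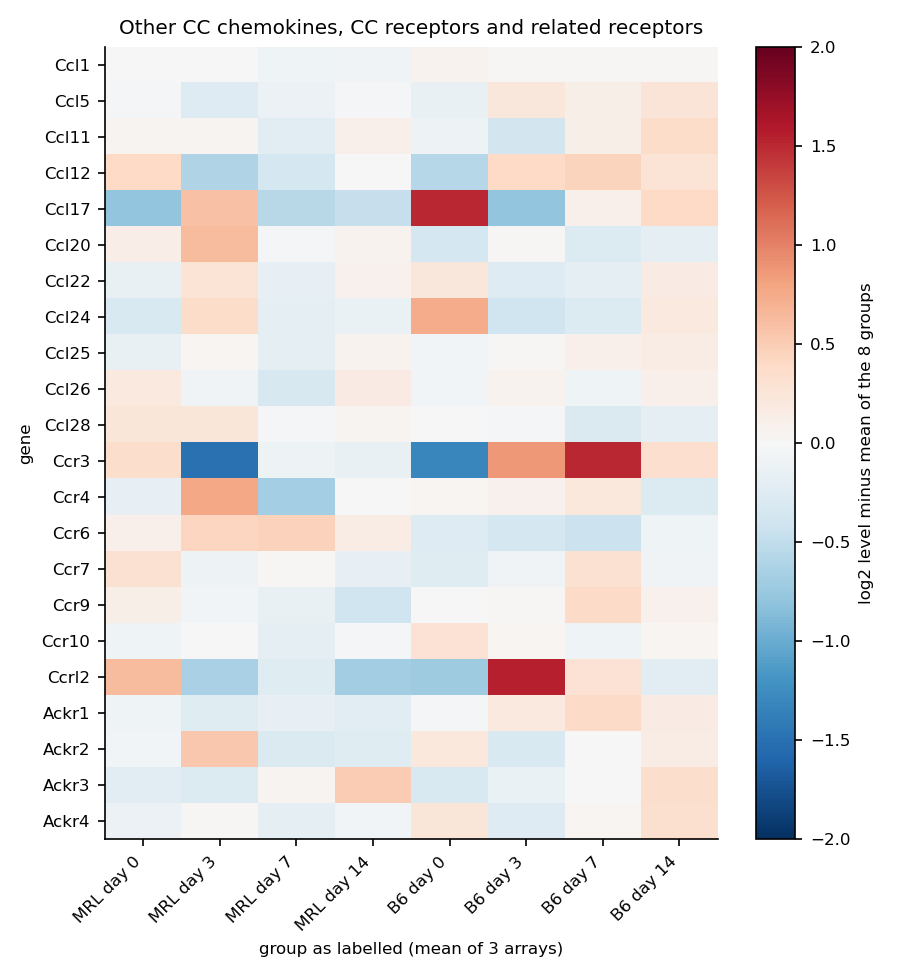
Mean log2 level of 22 other CC chemokine, receptor and related genes in each of the 8 groups as labelled, minus the mean of the gene's 8 group levels (colour scale from -2 to 2; 3 arrays a group). Ccr3 and Ccrl2 stand at 7.13 and 8.46 in B6 day 3 and at 4.96 and 6.19 in B6 day 0, while Ccl17 is highest in B6 day 0.

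At day 7 in B6, 6 of these 22 genes were above day 0 and 3 below (23.5% of all probe sets were higher and 19.4% lower), with Ccr3 at 7.06, 8.56 and 7.69 on the day 7 arrays and 5.13, 5.07 and 4.66 on the day 0 arrays, a difference of 2.81 ± 0.31 (SE, limma adjusted p = 4.00e-07). Ccl12 was 1.02 ± 0.23 higher, Ccrl2 1.00 ± 0.20, Ackr1, a receptor that binds chemokines without signalling, 0.41 ± 0.12 and Ccr9 0.39 ± 0.15, and Ccl24 fell by 1.02 (SE 0.24) and Ccl22 by 0.42 (SE 0.15). The calls of Ccr9 and Ccl22 were lost without 1 of several arrays (adjusted p = 0.0894 to 0.172 and 0.118 to 0.171). Ccr7, a homing receptor of dendritic and T cells, was 0.55 ± 0.18 higher, a call lost without B6 day 7 replicate 2 or B6 day 0 replicate 1 or 2 (adjusted p = 0.173, 0.0672 and 0.0539). Ccl17 fell by 1.40 (SE 0.47), a call lost without B6 day 7 replicate 3 or B6 day 0 replicate 1 (adjusted p = 0.118 and 0.184). With the compared arrays alone the calls of Ccr9, Ccl22, Ccr7 and Ccl17 were lost (adjusted p = 0.0558, 0.0663, 0.0564 and 0.0971). That of Ccl22 was also lost after cyclic loess scaling, that of Ccr9 with the replicate block and that of Ccr7 with array weights (adjusted p = 0.112, 0.0513 and 0.0526). Ccr10 was called lower at day 7 with array weights or the replicate block (adjusted p = 0.0383 and 0.0261). It was also called without B6 day 0 replicate 2 or B6 day 7 replicate 3 (adjusted p = 0.0334 and 0.00729). Ackr3 was called higher at day 7 with array weights (adjusted p = 0.0489). At day 14, 4 were higher and 0 lower (22.8% and 14.2% of all probe sets), Ccr3 by 1.64 ± 0.31, Ccl12 by 0.84 ± 0.23, the scavenging receptor Ackr3 by 0.66 ± 0.17 and Ccl11, a ligand of Ccr3, by 0.46 ± 0.18, the last lost under both scalings (adjusted p = 0.237 and 0.199) and without 1 of several arrays (adjusted p = 0.111 to 0.212). Calls at day 14 were gained by Ccl17, as lower, with array weights and without B6 day 0 replicate 2 or B6 day 14 replicate 3 (adjusted p = 0.0216 to 0.0402), by Ccl24, as lower, with quantile normalization and with the compared arrays alone (adjusted p = 0.0340 and 0.0425), by Ccrl2, as higher, under 5 settings (adjusted p = 0.00330 to 0.0482) and by Ccl5, as higher, without B6 day 14 replicate 1 or B6 day 0 replicate 1 (adjusted p = 0.0419 and 0.0487). Between days 3 and 7, 1 of the 22 fell, Ccrl2 by 1.27 (SE 0.20), while 4.17% of all probe sets were lower and 17.0% higher. Between these days Ackr4, Ccl11 and Ccr9 were called higher with array weights (adjusted p = 0.0182 to 0.0251). Ccl11 was also called with the filter on low levels or without B6 day 7 replicate 3 (adjusted p = 0.0435 and 0.0433). Without B6 day 7 replicate 1, Ccr3 and Ccr7 were called higher (adjusted p = 0.0324 and 0.0499). The eosinophil markers Siglecf, Epx and Prg2 summed to 201 to 218 at day 7 and 169 to 189 at day 0 in B6, and 0 of the 3 passed at day 7. The part of eosinophils in the Ccr3 level was not tested. In MRL at day 7, 4 of the 22 were lower and 1 higher than in B6 (6.27% of all probe sets were lower and 3.18% higher). Ccr3 was lower at -1.60 ± 0.31, Ccl12 at -0.80 ± 0.23, Ackr1 at -0.54 ± 0.12 and Ccr9 at -0.53 ± 0.15, and Ccr6, a receptor of lymphocytes, was higher at 0.89 ± 0.18 (limma adjusted p = 0.00281). The calls of Ccl12 and Ccr9 were lost without 1 of 5 of the 6 arrays each (adjusted p = 0.0524 to 0.121 and 0.0637 to 0.143). All 3 B6 arrays of Ccr6 lay under the lower quartile. With array weights Ccr4 and Ccrl2 were called lower in MRL at day 7 (adjusted p = 0.0214 and 0.0213). Ccr4 was also called without MRL day 7 replicate 1 (adjusted p = 0.0311), but lay under the lower quartile on all arrays of both groups. At day 14, limma called 0 of the 22 between the strains (4.40% of all probe sets were lower in MRL and 0.866% higher). Of the 22, 5 had an unadjusted p under 0.05, all of them lower in MRL. With array weights 6 of the 22 were called lower in MRL, namely Ackr1, Ackr2, Ackr4, Ccl11, Ccr9 and Ccrl2 (adjusted p = 0.000447 to 0.0450). With these weights 2912 of all 15928 probe sets were called in either direction, against 839 as reported. Ackr1 and Ccr9 were also called lower without B6 day 14 replicate 1 or MRL day 14 replicate 3 (adjusted p = 0.0105 to 0.0498).

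Counts over all probe sets moved with the scaling of the arrays. As reported, 2776 probe sets were higher and 4458 lower at day 3 than at day 0 in B6, against 3597 and 3466 after cyclic loess scaling. At day 7 in B6 the split against day 0 was 3743 higher and 3095 lower as reported and 3416 and 4367 after quantile normalization, and at day 14 it was 3624 and 2266 as reported and 3117 and 4132 after quantile normalization. Between days 7 and 3 it was 2708 higher and 664 lower as reported and 1523 and 1517 after cyclic loess scaling, and between days 14 and 7 it was 232 and 64 as reported and 287 and 173 after it. For MRL minus B6 the split at day 7 was 507 higher and 999 lower as reported and 1025 and 963 after cyclic loess scaling, at day 14 it was 138 and 701 as reported and 382 and 633 after it, and at day 3 as labelled it was 4311 and 2163 as reported and 3023 and 3348 after it. In MRL as labelled, day 3 against day 0 had 2128 higher and 1139 lower as reported and 1504 and 1725 after cyclic loess scaling, day 7 against day 3 had 1542 and 2139 as reported and 2339 and 1924 after it, and day 14 against day 3 had 890 and 1202 as reported and 1606 and 1163 after it. Under both scalings 8 members were higher at day 3 than at day 0 in B6, and 5 were lower in MRL at day 7.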

How the data were processed

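The deposited value table holds 1 intensity per probe set on a linear scale for each of 24 arrays. Per the submitters' processing notes it was made in Affymetrix Expression Console with RMA (background correction, quantile normalization and summary of probes), with mm8 named as the genome build. The 24 arrays fall by their labels into 8 groups of strain and day with 3 arrays each, and precision is limited by that number. Of 16661 probe sets, 14939 name 1 gene symbol, 989 several and 733 none, and the 15928 with a symbol were tested. Where a gene had several probe sets, the one with the highest mean was used.

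The log2 of the deposited intensity was fitted in limma 3.58.1 (R 4.3.3) with 1 mean per group and no block (16 residual degrees of freedom, prior degrees of freedom 4.62). P-values are two-sided and were adjusted by Benjamini-Hochberg over all 15928 probe sets within each of 16 comparisons, with a threshold of 0.05. An exact permutation test of 3 arrays against 3 could not reach that threshold and was not run. The fit was tested on simulated data. The numbers in the labels did not pair the arrays: of 84 residual correlations of same-numbered arrays, 10 were above 0.1, and all 3 were in 1 of 28 pairs of groups. Alternatives were cyclic loess scaling, quantile normalization, an offset of 32, a filter at the lower quartile of mean level (5.841), array weights, the compared arrays alone, a replicate block, leaving out each array and, for Ccl9, the shared probe set. The 22 other genes of the family were put through the same alternatives after their values were seen.

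The members and lists were chosen with earlier results of these data known. Named were the 9 members, the other family genes (27 listed, 22 with a probe set of their own) that passed or were given by count, and the 3 genes most like each member by Pearson's r of the 8 group means. Promoter windows and gene order come from RefSeq tables of GRCm38.p6.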

Additional observations from a re-analysis of the deposited data

Results flagged for a closer look

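In 8 of the 9 members, every array labelled day 3 lay below every array labelled day 0 in MRL, while in B6 every day 3 array lay above every day 0 array. Of all probe sets, 14.1% were lower without overlap in MRL and 19.2% higher without overlap in B6. The share that did both was not counted, so 8 of 9 has no background beside it. The MRL differences as labelled were -1.65 for Ccl2, -3.40 for Ccl3, -1.15 for Ccl4, -1.13 for Ccl6/Ccl9, -2.65 for Ccl7, -1.67 for Ccl9, -3.46 for Ccr1 and -2.36 for Ccr2. The difference between the strains in this change was not tested, and neither was an exchange of labels. Outside the members, 1005 probe sets were called and changed at least 2-fold in B6. Of these, 711 were also called in MRL, and 710 of the 711 had opposite signs. Single arrays were not tested for standing apart, since groups of 3 are too small for that.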

How the results depend on the processing

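Of 144 differences of members, 90 were called. Over 1910 values under the alternatives, 1848 kept their side of the threshold, 40 lost a call, 22 gained one and 0 were called in the other direction. A value called in neither fit was counted as kept whatever its sign. The lost calls belong to 10 differences, each named in the report, and the gained ones to 12, and the cause was not tested. With the replicate number as a block, 2 member calls were lost, both of Ccl7: day 7 minus day 3 in B6 (adjusted p = 0.0506) and MRL minus B6 at day 14 (adjusted p = 0.0596). Member calls between days 14 and 7 in B6 were 0 as reported, 1 with either scaling, the offset, the filter or the compared arrays alone, and 0 to 1 without 1 array. In MRL they were 0 as reported, 2 with array weights and 1 with the compared arrays alone. Between MRL days 14 and 3 as labelled they were 3, with 5 after cyclic loess scaling, 1 with the compared arrays alone and 1 to 4 without 1 array. For MRL minus B6 at day 14 they were 5, with 3 to 4 without 1 array. The filter leaves out Ccl4, so it gave no value for it.

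Counts over all probe sets were as follows, as reported and then with array weights: 296 and 557 for B6 day 14 minus day 7, 3372 and 5428 for B6 day 7 minus day 3, 2818 and 5735 for MRL day 14 minus day 0, 2092 and 5372 for MRL day 14 minus day 3, 564 and 2451 for MRL day 14 minus day 7, 2753 and 4639 for MRL day 7 minus day 0, 3681 and 5709 for MRL day 7 minus day 3, 839 and 2912 for MRL minus B6 at day 14, 1506 and 3107 at day 7, and 42 and 201 for the interaction. With the compared arrays alone they were 159, 1914, 1729, 1318 and 246 for the first 5 of these, 424 for MRL minus B6 at day 14 and 1 for the interaction. Cyclic loess scaling gave 460 for B6 day 14 minus day 7 and 891 for MRL day 14 minus day 7, where quantile normalization gave 869. Without 1 array the counts ran from 174 to 293 for B6 day 14 minus day 7, 1319 to 2119 for MRL day 14 minus day 3, 294 to 484 for MRL day 14 minus day 7, 1738 to 2465 for MRL day 7 minus day 0, 499 to 1177 for MRL minus B6 at day 14, 894 to 1297 at day 7 and 27 to 50 for the interaction. For MRL day 3 minus day 0, with 3267 as reported, they ran from 2113 to 2993. Levels under an array's lower quartile (Ccl4 in most groups, Ccr1 at B6 day 0 and in the arrays labelled MRL day 3, Ccl3 at B6 day 0) limit the folds against them. Among the other family genes called in the comparisons given, all 3 arrays were that low for Ccr3 and Ccl12 at B6 day 0. The same holds for Ccl17 at B6 day 3 and Ccr6 at B6 day 7.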
